A study of Mus musculus with 2 samples.

Results

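The keratin-positive cells of mouse tumours were examined in a single-cell RNA-seq series whose samples had been enriched for CD45+ leukocytes, so that these cells are not the type selected for. The cells were chosen by their own RNA counts. A barcode was taken as keratin-positive when it held at least 300 genes, at least 800 unique molecular identifiers (UMIs, counts of captured RNA molecules) and at most 10% mitochondrial UMIs. It also had to hold at least 10 UMIs of Krt8 and Krt18 together and at least 2 of the 5 genes Krt19, Lgals7, Tm4sf1, Rhox5 and Serpinh1. Barcodes with more than 1 UMI of Ptprc, more than 5 of C1qa, C1qb and C1qc together or any UMI of Cd3e or Csf3r, which are leukocyte genes, were left out. The rule was met by 786 of the 16798 barcodes that passed the filters. Of these, 716 came from the control library and 70 from the library of tumours treated with motolimod, an agonist of Toll-like receptor 8.

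Each group is 1 library. The design text gives 5 biological replicates per group, and how their cells were combined is not given in the sources used here. Neither the tumour model, the strain and age of the mice, nor the dose and timing of motolimod is given there. Both groups were dissociated and selected for CD45+ cells with magnetic beads, and both were captured with the droplet-based 3′ chemistry of 10x Genomics. With 1 library a group, a difference between the libraries cannot be told apart from a difference between the treatments, and no test between the groups was made. Intervals given below are 95% intervals for counting error only, and a gene is called higher or lower when its level differs by at least 1.5-fold.

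Keratin 8 and keratin 18 form the obligate pair of intermediate filament proteins of simple, single-layered epithelia, and many carcinomas keep them. Keratin 19 pairs with keratin 8 in ductal and glandular epithelia. Tumour cells that lose E-cadherin and gain vimentin and the transcription factors Twist and Snail have undergone part of an epithelial to mesenchymal transition, and such cells can keep keratins. Proliferating tumour cells make a set of genes of DNA replication and mitosis in waves, and many promoters of the mitotic genes carry CCAAT boxes and the cell cycle homology element TTTGAA. Many interferon-stimulated genes are driven through a promoter element built of repeated GAAA, the interferon-stimulated response element.

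The promoters of the 4 genes that set the cycling state, and of 2 interferon-stimulated genes that differed between the libraries, are shown because the sections below turn on these genes. Each is the 250 bases before the gene's start in RefSeq, build GRCm38.p6, written 5′ to 3′ on the gene's strand. Capitals mark TTTGAA and CCAAT, read on either strand, in the cycling genes. In the interferon genes they mark the core of the response element (GAAA, then 2 bases of any kind, then GAAA again, on either strand), where overlapping matches run together.
Mki67, chr7:135716380-135716629, minus strand: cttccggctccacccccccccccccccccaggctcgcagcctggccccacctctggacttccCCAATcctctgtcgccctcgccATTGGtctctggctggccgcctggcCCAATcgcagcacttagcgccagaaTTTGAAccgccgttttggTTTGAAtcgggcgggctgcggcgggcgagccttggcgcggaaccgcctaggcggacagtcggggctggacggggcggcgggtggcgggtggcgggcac
Top2a, chr11:99024190-99024439, minus strand: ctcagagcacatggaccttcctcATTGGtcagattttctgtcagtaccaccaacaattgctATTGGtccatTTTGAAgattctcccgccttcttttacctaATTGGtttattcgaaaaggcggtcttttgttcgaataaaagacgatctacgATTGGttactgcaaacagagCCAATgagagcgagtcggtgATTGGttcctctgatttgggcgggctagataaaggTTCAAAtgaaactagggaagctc
Birc5, chr11:117848987-117849236, plus strand: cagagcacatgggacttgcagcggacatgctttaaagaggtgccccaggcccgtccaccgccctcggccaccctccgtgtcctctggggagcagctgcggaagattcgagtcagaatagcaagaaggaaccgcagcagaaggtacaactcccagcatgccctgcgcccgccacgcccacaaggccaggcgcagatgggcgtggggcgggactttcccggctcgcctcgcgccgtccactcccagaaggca
Ube2c, chr2:164769679-164769928, plus strand: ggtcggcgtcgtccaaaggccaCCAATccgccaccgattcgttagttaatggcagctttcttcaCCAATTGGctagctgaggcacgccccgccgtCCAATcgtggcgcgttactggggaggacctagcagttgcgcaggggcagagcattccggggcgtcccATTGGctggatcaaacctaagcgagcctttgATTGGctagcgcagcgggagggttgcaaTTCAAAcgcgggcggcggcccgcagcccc
Isg15, chr4:156200819-156201068, minus strand: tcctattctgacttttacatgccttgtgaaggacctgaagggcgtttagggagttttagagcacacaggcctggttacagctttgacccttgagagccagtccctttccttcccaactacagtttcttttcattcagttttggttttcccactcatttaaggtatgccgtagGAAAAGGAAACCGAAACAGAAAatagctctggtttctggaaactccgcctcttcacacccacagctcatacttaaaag
Bst2, chr8:71537473-71537722, minus strand: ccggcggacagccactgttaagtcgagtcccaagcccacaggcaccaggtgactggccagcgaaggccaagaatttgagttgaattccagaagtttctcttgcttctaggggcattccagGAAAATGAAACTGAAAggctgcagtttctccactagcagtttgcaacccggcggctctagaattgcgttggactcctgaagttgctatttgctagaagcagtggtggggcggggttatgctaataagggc

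The Top2a and Ube2c windows each held 6 CCAAT matches, the Mki67 window held 3, and the Birc5 window held neither motif. TTTGAA was matched at 2 places in Mki67, 2 in Top2a and 1 in Ube2c. Over all 32851 promoter windows of the same length, 33.8% held CCAAT and 16% held TTTGAA on either strand. Among the G2 and M phase genes described below, 20 of the 27 with a window held CCAAT and 9 held TTTGAA, and among the S phase genes 15 and 3 of 25 did. The response element core was matched at 3 overlapping places in Isg15 and 2 in Bst2, in 9 of 18 windows of the type I interferon list and in 2.98% of all windows. These matches describe the letters of the windows and say nothing about which factor binds there.

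The library totals differed. Among the other barcodes that passed the filters, the median was 12710.5 UMIs in the control library and 3691.5 in the motolimod library. Keratin-positive cells were deeper and alike in both, with a lowest, median and highest of 6022, 40788.5 and 115131 UMIs in the control library and 8241, 47937 and 129272 in the motolimod library. Their median number of genes was 5777.5 and 6238, and their median mitochondrial share was 1.49% and 1.97%. No barcode of a keratin-positive cell occurred in both libraries, against 113 of all deposited barcodes.

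Keratin-positive cells made up 9.57% of the passing barcodes of the control library (exact binomial interval 8.91% to 10.3%) and 0.752% of those of the motolimod library (0.586% to 0.949%). The ratio of the shares was 0.0786 (0.0606 to 0.101). Because CD45+ cells had been selected, unequal carry-over of CD45-negative cells and a difference in the tumours cannot be told apart from these shares. The immune genes removed 145 further keratin-positive barcodes from the control library and 14 from the motolimod library. The C1q genes of macrophages removed 122 and 6 of them, Ptprc 72 and 9, Cd3e 23 and 2 and Csf3r 24 and 3, and a barcode could fail several. All of the 861 and 84 passing barcodes with at least 10 keratin UMIs also met the requirement of 2 of the 5 other genes, and 547 of the 716 and 58 of the 70 cells held all 5. Just inside the keratin threshold, 42 control cells and 3 motolimod cells held 10 to 14 UMIs of Krt8 and Krt18, with a median of 660 and 475 CPM, the UMIs of a gene scaled to one common total per cell or set of cells. Just outside it, 34 and 6 otherwise eligible barcodes held 5 to 9 UMIs, with a median of 566 and 293 CPM.

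**Figure D1:**
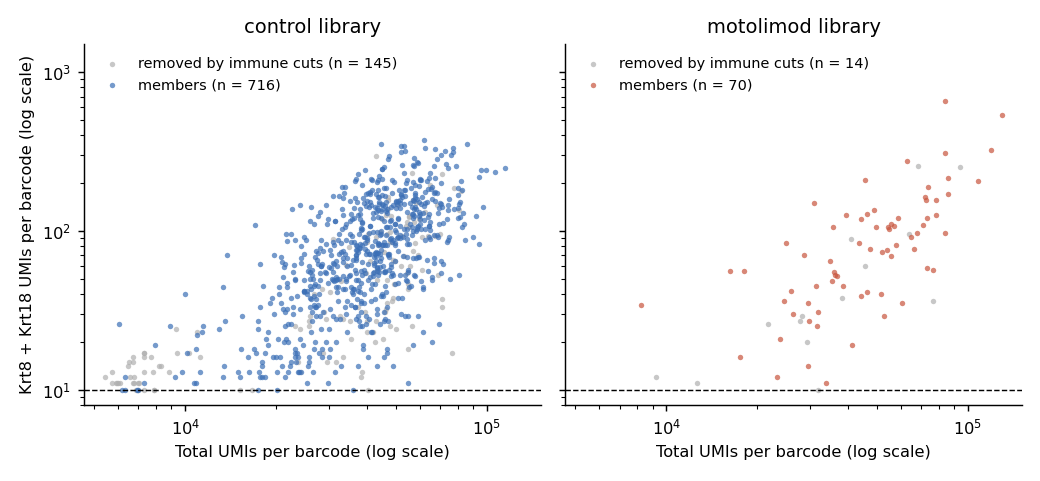
UMIs of Krt8 and Krt18 together (y axis, log scale) against all UMIs of the barcode (x axis, log scale) for barcodes with at least 10 keratin UMIs (dashed line), in the control library (left) and the motolimod library (right). Coloured points are the 716 and 70 keratin-positive cells (members in the legend), and grey points are the 145 and 14 barcodes removed for immune genes.

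The genes used to choose the cells are given as a description. Krt8 (chromosome 15, 101996698 to 102004482, minus strand, in the GENCODE annotation of the same build) was summed over the cells to 1273 CPM in the control library and 1167 CPM in the motolimod library. Krt18, its neighbour on chromosome 15 (102028180 to 102032027, plus strand), stood at 896 and 895 CPM. Both keratins varied widely between cells: the lowest, median and highest cell of the control library had 0, 1063 and 6800 CPM of Krt8, and those of the motolimod library had 265, 854 and 5312. The homeobox gene Rhox5, on the X chromosome (37804842 to 37808876) and normally active in the testis and placenta, stood at 1047 and 1004 CPM and was detected in each of the 786 cells. Its cells ranged from 114 to 1997 CPM in the control library and from 430 to 1942 in the motolimod library, a narrower range than that of the keratins. Lgals7, a galectin of stratified epithelia, stood at 809 and 746 CPM, and Tm4sf1, a small membrane protein of endothelium and many carcinomas, at 668 and 617. The collagen chaperone Serpinh1 stood at 902 and 862 CPM and Krt19 at 230 and 203. Rhox5 was seen in 7.14% of macrophages of the control library and 3.04% of those of the motolimod library, at median depths of 16939 and 9914 UMIs. Macrophages were barcodes with at least 20 C1q UMIs and at most 1 UMI of Krt8 and Krt18, so their keratin level is set by that choice.

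The keratins were used to choose the cells and cannot check the epithelial label, so it was read on genes outside the rule, most of which were low or absent. Of 28 genes of epithelial adhesion and identity, 3 reached 50 CPM in the control cells: Tjp1, a tight-junction scaffold, at 72.3, Itga6, a laminin receptor, at 52.7, and Jup, a desmosome plaque protein, at 52.1. Epcam, the adhesion molecule of most epithelia, stood at 3.62 CPM and 4.16 CPM in the control and motolimod cells. Cdh1, which encodes E-cadherin, had 1 UMI over all control cells and none over the motolimod cells. The claudins Cldn3 and Cldn7, the splicing regulators Esrp1 and Esrp2, Perp and Rab25 had no UMI in either library. Krt5, the basal keratin, had no UMI, and its partner Krt14 had 1 in each library.

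Some genes of the mesenchymal state were present in the same cells. Of 18 genes of that list, 9 reached 50 CPM in the control cells and 10 in the motolimod cells. In the other barcodes 9 did so in each library, and in macrophages 8. The list summed to 6209 and 5941 CPM in the keratin-positive cells, against 4792 and 4629 in the other barcodes. Vim, which encodes vimentin, was detected in all 786 cells, with 583, 4493 and 10101 CPM in the lowest, median and highest control cell and 1347, 4022 and 11526 CPM in those of the motolimod library. It was also at 2810 and 2245 CPM in the other barcodes and seen in 99.5% and 99.3% of macrophages. Twist1, a transcription factor of the transition, stood at 92.9 and 78.4 CPM, its relative Twist2 at 57.4 in both libraries, and Snai1, which encodes Snail, at 51.9 and 48.8. The other passing barcodes, which include those removed for immune genes, held 5.35 and 2.15 CPM of Twist1, 3.85 and 1.96 of Twist2. They held 5.07 and 3.81 CPM of Snai1. Twist1 was seen in 90.5% of the control cells and 94.3% of the motolimod cells, against 0.543% and 0.380% of macrophages. The matrix protein Sparc stood at 530 and 432 CPM, and the collagen genes Col3a1 at 220 and 195 and Col4a1 at 139 and 146.

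Marker lists of other tissues and of leukocytes differed in level. Summed over the whole list, 10 intestinal markers came to 5.11 and 3.88 CPM, 7 lung markers to 0.664 and 0.554, 8 liver and pancreas markers to 3.22 and 0.831 and 7 melanocyte markers to 6.74 and 12.2. Of 10 mammary markers, the sum of 31.0 and 20.8 CPM was mostly Csn3, a casein gene, at 28.4 and 19.1. Of 8 endothelial markers, 3 and 1 reached 1 CPM. The 10 fibroblast markers summed to 371 and 425 CPM, above the 188 and 346 CPM of the other barcodes, with Col3a1 at 220 and 195 and Pdpn, podoplanin, at 85.7 and 158, while Col1a2 had no UMI in either library. The 11 squamous markers summed to 842 and 785 CPM, mostly Lgals7, a gene of the rule. The 8 dendritic cell markers summed to 263 and 246 CPM, of which Fscn1, an actin-bundling protein, gave 261 and 245. The 14 macrophage and monocyte markers summed to 154 and 132 CPM, against 34214 and 28441 in the other barcodes, and Cd74, the invariant chain of MHC class II, gave 71.7 and 49.1 of it. The 12 T and NK cell markers summed to 3.39 and 5.27 CPM and the 6 B cell markers to 0.963 and 1.39. The keratin-positive cells are called by their rule here.

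**Figure D2:**
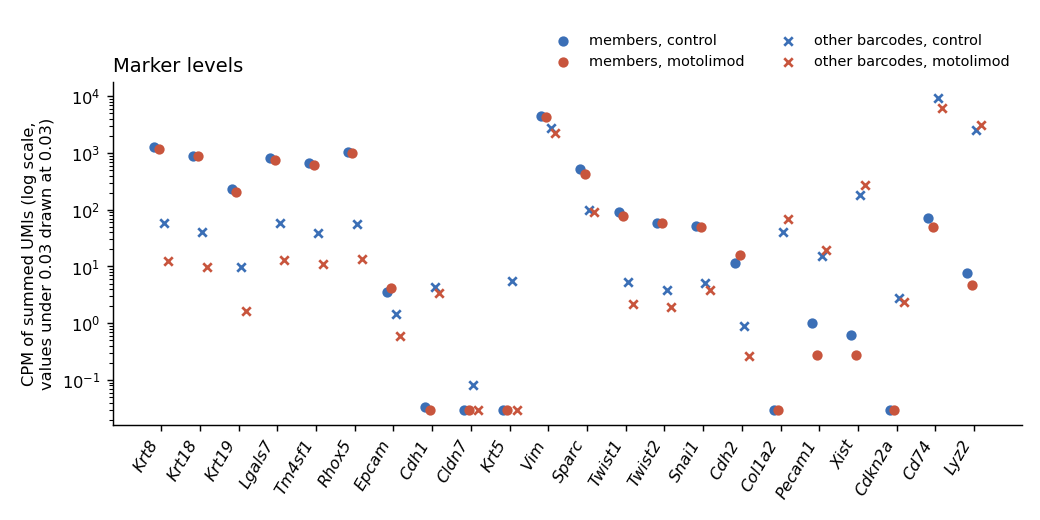
CPM of summed UMIs (y axis, log scale) of keratins, genes of the rule, epithelial junction genes, mesenchymal genes and markers of other cells. Circles are the keratin-positive cells (members) and crosses the other passing barcodes, blue for the control and red for the motolimod library, and the circles of both libraries lie together for the keratins and Vim while those of Cdh1 and Cldn7 lie at the floor.

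Against the other barcodes of the same library, the genes with the highest ratios among those at 100 CPM or more in control cells began with Krt19, at 23.4-fold, Krt8, at 21.9-fold, and Krt18, at 21.8-fold. These ratios describe cells chosen for some of these genes. The same 20 genes included Tinagl1, a matrix protein, at 245 CPM against 12 in the other barcodes, Hspb8, a small heat-shock protein, at 146 against 8.27, and Emp2, a membrane protein of epithelia, at 136 against 7.98. Wwtr1, which encodes the transcriptional coactivator TAZ, stood at 124 CPM against 7.40, its target Ccn1 at 602 against 37.3, and the AP-1 member Fosl1 at 213 against 12.7. Map1b, a microtubule-associated protein of neurons, stood at 170 against 9.99. In the motolimod library the ratio of each of the 3 keratins was higher, at 122, 92.0 and 92.4-fold, as the other barcodes held less keratin RNA there: 12.7 CPM of Krt8 against 58.2 in the control library. Those levels in other barcodes differed in the same direction as the share of keratin-positive cells. The other barcodes include the 145 and 14 keratin-positive barcodes removed for immune genes, which held 4.23% and 0.960% of all passing UMIs. The part of these removed barcodes in those levels, and that of free RNA, was not tested.

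Some genes that macrophages, T cells and neutrophils all held were near 0 in the keratin-positive cells. Under 2 CPM in both libraries and at least 20 CPM in each of the 3 leukocyte sets of both libraries were 159 genes. Most are leukocyte genes such as Ptprc, on which the rule acts, and 3 others were singled out after their values were seen. Xist, the RNA that silences an X chromosome in females (chromosome X, 103460366 to 103483254), gave 19 UMIs in 10 of 716 control cells and 1 UMI in the 70 motolimod cells, or 0.631 and 0.277 CPM. The leukocyte sets held between 127 and 355 CPM of Xist, and no Y-linked gene of the list was detected in any set. Itgb1, the common beta chain of many integrins (chromosome 8, 128685654 to 128733200), gave 45 UMIs in the control cells, 37 of them in 1 cell, and 1 UMI in the motolimod cells, against at least 70.9 CPM in each leukocyte set. App, which encodes the amyloid precursor protein, stood at 1.83 and 0.277 CPM, against at least 41.2. Cdkn2a and Cdkn2b, neighbouring cell cycle inhibitors on chromosome 4 that were singled out in the same way, had no UMI in 716 and 70 cells, which by a limit of 3 counts allows a share of cells with a UMI of up to 0.419% and 4.29% (exact binomial upper bounds 0.514% and 5.13%). Cdkn2a was seen in 3.26% and 2.17% of macrophages and in 13.4% and 5.88% of T cells. Cdkn2b was seen in only 0.906% and 0.380% of macrophages and in 1.60% and 1.34% of T cells. In the motolimod library these Cdkn2b shares lie under the upper bound of 5.13%, so no lower level can be read from the 70 cells.

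Levels were then set side by side between the libraries. Of 2744 genes with a mean of at least 50 CPM, 24 were at least 1.5-fold higher and 15 at least 1.5-fold lower in the motolimod cells, which is 0.875% and 0.547% of the genes compared. The median log2 ratio was 0.03, and 2705 genes, or 98.6%, lay within 1.5-fold. Only 3 genes were at least 2-fold higher and 3 at least 2-fold lower. The cells held 23.7% of all passing UMIs of the control library and 5.89% of those of the motolimod library. The motolimod sums rest on 70 cells and the control sums on 716, so a single deep cell weighs more in the former.

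Of 22 genes of the type I interferon response, 3 reached the minimum for comparison and 2 of them were lower in the motolimod cells. Of all compared genes, 0.547% were lower. Isg15, a ubiquitin-like modifier induced by interferon, was 195 CPM in the control cells and 96.4 CPM in the motolimod cells, a ratio of 0.494 (0.442 to 0.550), or 0.717 with each cell thinned to 3000 UMIs, which ends the call. Bst2, which encodes the virus-tethering protein tetherin, was 416 and 264 CPM, a ratio of 0.634 (0.593 to 0.678), or 0.747 after thinning. None of the 3 was higher, and their median log2 ratio was -0.66. Thinned ratios, here and below, rest on far fewer UMIs from a random draw and have no interval.

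With the minimum lowered to 20 CPM, 6 of 10 compared genes of the list were lower and none higher, where 1.09% of all 5410 genes were lower and 1.29% higher. The median of the 10 was -0.78, against 0.04 over all genes. The other 4 were Irf7, the master regulator of the interferon response, at 43.3 and 10.3 CPM, Rtp4 at 34.6 and 10.8, Oas1a, a sensor of double-stranded RNA, at 32.2 and 11.6, and Xaf1 at 39.7 and 21.3. Irf7 was detected in 63.1% of the control cells and 22.9% of the motolimod cells, and after thinning each cell to 3000 UMIs in 11.3% and 1.43%. Summed over the 22 genes, the level was 1058 CPM (1046 to 1069) in the control cells and 668 CPM (641 to 695) in the motolimod cells. With each cell thinned to 3000 UMIs, the ratio of these sums was within 1.5-fold. Per cell, the sum made up between 0.928 and 139, with a median of 8.97, of each 10000 UMIs in the control library. It made up between 0.556 and 22.1, with a median of 5.05, in the motolimod library, so the ranges overlap. The highest cells are in the control library, but a maximum over 716 cells can exceed one over 70 by the number of cells alone. The 72 control cells and 7 motolimod cells with the highest sums held 29% and 32.7% of the list's UMIs.

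The sum was lower in the motolimod library among non-cycling and among cycling cells: 1251 and 758 CPM in non-cycling cells and 984 and 640 CPM in cycling cells. In the other passing barcodes, the same sum was 3361 CPM in the control library and 4021 CPM in the motolimod library. In macrophages it was 3356 and 3092, in T cells 1588 and 1958, and in neutrophils 8805 and 9905. The other barcodes included 3865 and 2631 macrophages and 223 and 794 neutrophils. The part of this change of mix in their sum was not tested. Isg15 itself had a ratio of 1.15 in the other barcodes and 0.706 in macrophages. Of the endosomal Toll-like receptors that such agonists engage, Tlr7 had 3 UMIs and Tlr8 1 UMI over the control cells, and neither had any in the motolimod cells, which by the same limit of 3 counts allows up to 4.29% of cells with a UMI. Tlr8 was seen in 11.2% and 9.84% of macrophages.

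Other genes with the lowest ratios are described one by one, as they were picked by their ratios and form no list. Ifi27, a mitochondrial protein induced by interferon (chromosome 12, 103434211 to 103440239), was 308 and 165 CPM, a ratio of 0.538 (0.494 to 0.584), and 260 and 133 CPM in the median cell. Among non-cycling cells alone its ratio was 0.715 and not called. In the other barcodes Ifi27 was 78.1 and 81.3 CPM. Zbp1, a sensor of Z-form nucleic acids, was 74.2 and 45.7 CPM and Lgals9, a galectin induced by interferon, 135 and 83.1, and both were higher in the other barcodes than in the keratin-positive cells. Tnfsf9, the ligand of the T cell receptor 4-1BB, was 79.5 and 38.5 CPM, a ratio of 0.484 (0.405 to 0.575). Clu, the secreted chaperone clusterin, was 322 and 183 CPM, and Gdf15, a stress-induced cytokine, 275 and 154. After thinning, the calls of Zbp1, Tnfsf9, Clu and Gdf15 ended, at 0.674, 0.696, 0.802 and 0.693. Gclm and Gstm1, of glutathione synthesis and conjugation, were 214 and 137 CPM and 72.7 and 43.2 CPM. They were the 2 lower genes of 18 compared in the antioxidant list, where 0.547% of all genes were lower, and the list's median log2 ratio was -0.05. The call of Gclm ended at 0.671 after thinning and at 0.670 without the non-cycling cells, and that of Gstm1 at 0.714 among non-cycling cells alone.

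The remaining lower genes named by the rule were nearer the 1.5-fold limit. Ddit4, an inhibitor of mTORC1, was 195 and 128 CPM, Mid1ip1, a regulator of lipid synthesis, 82.1 and 53.8, and Hmgcs1, an enzyme of cholesterol synthesis, 186 and 126, which is within the limit. The calls of Ddit4 and Mid1ip1 ended after thinning, at 0.785 and 0.808, and without the non-cycling cells, at 0.677 and 0.742, and that of Ddit4 also as a mean over cells, at 0.700. Ddit4 and Hmgcs1 were lower in the other barcodes too, with ratios of 0.580 and 0.547. The cholesterol and fatty acid list as a whole had no gene called among 15, with a median log2 ratio of 0.04.

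Several of the higher genes had a like ratio in macrophages of the same libraries. mt-Nd3, a mitochondrial subunit of complex I, was 85.5 and 171 CPM, a ratio of 2.00, with a ratio of 2.59 in macrophages and 1.79 in T cells. Hypk, which binds the amino-terminal acetylation machinery, had a ratio of 1.84 in the keratin-positive cells and 1.82 in macrophages. Polr2l, an RNA polymerase subunit, had 1.95 and 1.92, and Chchd2, a mitochondrial protein, 1.57 and 1.70. mt-Nd4l, Dynlt1b and Gm47283 had ratios of 1.80, 1.89 and 1.72, with 1.73, 1.91 and 1.78 in macrophages. These genes differed by like ratios in a second cell type of the same libraries, and the part of the library in that was not tested. After thinning, the calls of Polr2l and Dynlt1b ended, at 1.41 and 1.48.

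Pdpn, which encodes the mucin-like podoplanin of invading tumour edges and fibroblasts (chromosome 4, 143267431 to 143299564), was 85.7 and 158 CPM, a ratio of 1.84 (1.68 to 2.02). It was 1.92-fold higher in macrophages as well. Its median cell had 65.6 and 98.4 CPM, and 87.0% and 94.3% of the cells held a UMI. Hist1h2ap, a replication-dependent histone, was 62.6 and 126 CPM with a ratio of 1.10 in macrophages. Myo10, a motor of filopodia, was 72.9 and 119 CPM, with 0.879 in macrophages. After thinning Hist1h2ap was no longer called, and among non-cycling cells alone neither was. Col5a3, a collagen chain, was 50.3 and 77.9 CPM, with a ratio of 1.98 in macrophages, and its call ended at 1.39 as a mean over cells, at 1.21 after thinning and at 1.28 among non-cycling cells. Nppb, which encodes a natriuretic peptide, was 51.1 and 80.9 CPM and was held by 36.2% and 57.1% of the cells, and its ratio was 1.08 after thinning.

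Some differences rested on 1 cell. Cryab, a small heat-shock protein, was 49.4 and 197 CPM, but 507 of its 712 motolimod UMIs lay in 1 cell, and without the highest cell of each library it was 46.3 and 58.2 CPM, a ratio of 1.26. Hist1h1e, a linker histone, had a ratio of 1.69 with all cells and 1.30 without the highest ones. All 149 UMIs of the mast cell protease gene Mcpt4 lay in 1 motolimod cell, and 129 of the 143 UMIs of S100a9, a neutrophil gene, lay in 1 motolimod cell.

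**Figure D3:**
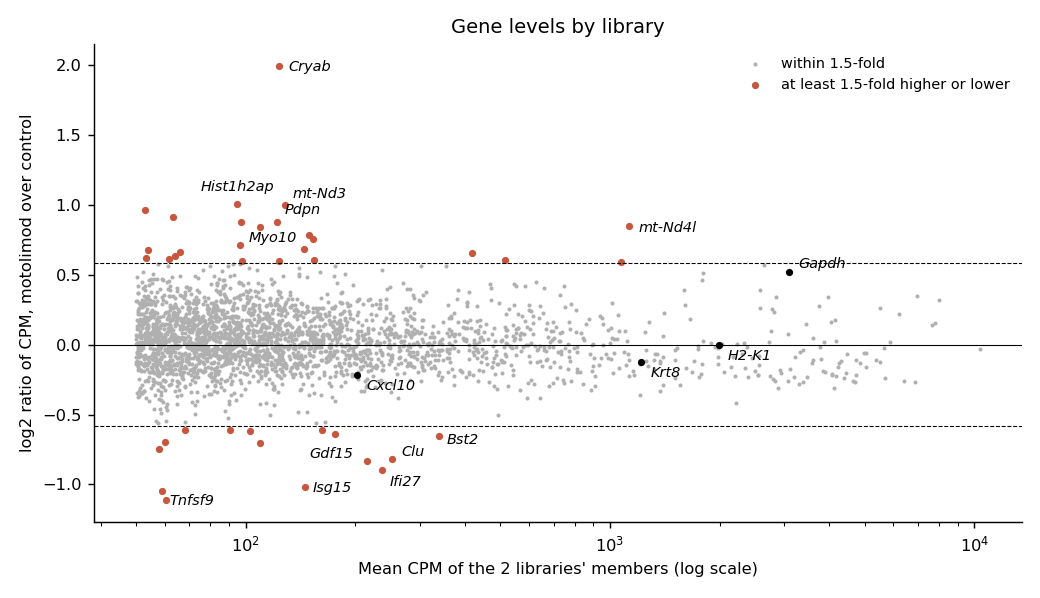
log2 ratio of CPM, motolimod over control (y axis), against the mean CPM of both libraries (x axis, log scale) for the 2744 genes compared in keratin-positive cells. Red points lie at least 1.5-fold from equal levels (dashed lines), with Isg15, Ifi27, Bst2, Clu and Tnfsf9 below and Cryab, Hist1h2ap, mt-Nd3 and Pdpn above, and H2-K1 and Krt8 near 0.

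Most of the lists showed no gene past 1.5-fold between the libraries. None of 16 compared genes of MHC class I presentation was called, and their median log2 ratio was -0.01. H2-K1, a classical class I heavy chain, was 1995 and 1987 CPM, with 143, 1894 and 6671 CPM in the lowest, median and highest control cell and 243, 1905 and 6973 in those of the motolimod library. B2m, the light chain, was 1772 and 1638 CPM, and the peptide transporter genes Tap1 and Tap2 were 129 and 135 CPM and 108 and 139 CPM. The interferon-gamma list had no call among 5, with Cxcl10, a chemokine for T cells, at 218 and 187 CPM and Irf1 at 200 and 214. Cd274, which encodes PD-L1, was seen in 106 of 716 control cells and 14 of 70 motolimod cells, and in 66.6% and 55.7% of macrophages, at median depths of 16939 and 9914 UMIs.

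Of 14 compared secreted factors, Gdf15 was the 1 lower and none was higher, where 0.547% of all genes were lower and 0.875% higher. UMIs of several chemokines were found in these cells: Ccl2, which attracts monocytes, was 2036 and 1914 CPM, Cxcl1, which attracts neutrophils, 726 and 559, and Cxcl2 483 and 439. Cxcl1 was 66.1 and 83.8 CPM in the other barcodes, whereas Cxcl2 there was 1342 and 8634, above the level in the keratin-positive cells, and Ccl2 1300 and 1151. The part of free RNA in these chemokine levels was not tested. Mif was 3712 and 3085 CPM, the EGF receptor ligands Hbegf and Areg were 105 and 148 CPM and 106 and 129 CPM, and Spp1, osteopontin, 589 and 588. Among ligands of immune cells, Lgals1, the galectin that binds T cells, was the most abundant at 7296 and 8033 CPM, and the lower gene of 4 compared was Lgals9. None of 20 glycolysis and hypoxia genes, 16 of the stress response of the endoplasmic reticulum, 15 immediate early genes or 15 matrix genes was called.

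The cells were then divided by the UMIs of Mki67, Top2a, Birc5 and Ube2c. Mki67 marks cells outside the resting state, Top2a untangles replicated DNA, Birc5 encodes survivin of the chromosomal passenger complex, and Ube2c tags cyclins for destruction at anaphase. The count per cell ran from 0 through a median of 7 to 519 in the control library and from 0 through 16.5 to 484 in the motolimod library. Cells with 5 or more UMIs are called cycling, those with 0 or 1 non-cycling, and the others intermediate. In the control library 387 cells, or 54.1% (50.3% to 57.7%), were cycling, 103 intermediate and 226 non-cycling. In the motolimod library 46 cells, or 65.7% (53.4% to 76.7%), were cycling, 2 intermediate and 22 non-cycling.

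The intervals of the cycling shares overlap, which does not show that the shares are equal. The ratio of the shares was 1.22 (0.875 to 1.65). That interval is conditional on the numbers of cycling cells and treats them as counts with no upper limit. It is too wide for shares as large as these, so it cannot decide whether counting error covers the difference. The difference lay in the intermediate cells, since the non-cycling shares were 31.6% and 31.4%. At 10 UMIs or more there were 326 control cells, or 45.5%, and 43 motolimod cells, or 61.4%. At 30 UMIs or more there were 242 control cells, or 33.8%, and 31 motolimod cells, or 44.3%. After thinning to 3000 UMIs, 49.2% (45.4% to 52.9%) and 55.7% (43.3% to 67.6%) of the cells held a UMI of the 4 genes. Cycling control cells had a median of 45959 UMIs against 31813.5 in non-cycling ones, and in the motolimod library 55406 against 31407.

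**Figure D4:**
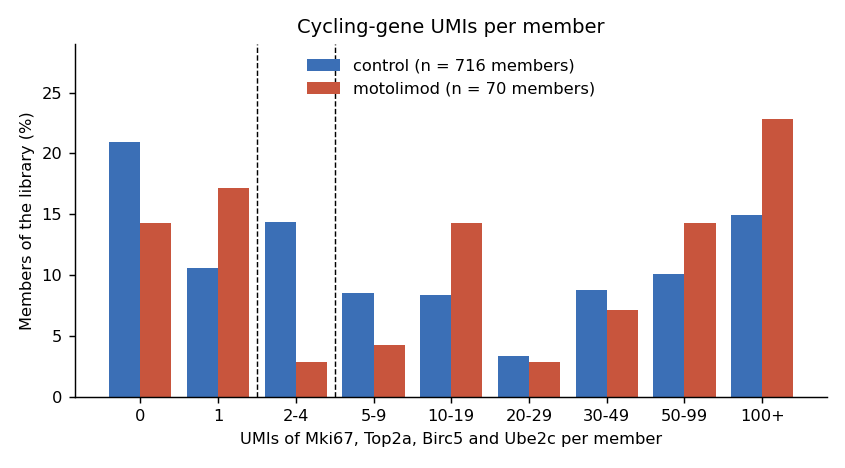
Share of keratin-positive cells (y axis, %) by their UMIs of Mki67, Top2a, Birc5 and Ube2c (x axis) in the control library (blue, 716 cells) and the motolimod library (red, 70 cells). Dashed lines bound the intermediate cells, which made up 14.4% of the control cells and 2.86% of the motolimod cells.

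Within the control library, cycling and non-cycling cells differed in many more genes than the libraries did. Of 2707 compared genes, 313 were at least 1.5-fold higher and 176 at least 1.5-fold lower in cycling cells, which is 11.6% and 6.5%. Under median-of-ratios scaling the split was 252 higher and 222 lower. In the motolimod library 437 and 198 of 2719 genes were called, which is 16.1% and 7.28%. Of the 313 higher genes of the control library, 237, or 75.7%, were also called higher in the motolimod library, where they were 54.2% of the calls. Of the 176 lower genes, 100, or 56.8%, were shared, which is 50.5% of the motolimod calls. No gene was called in opposite directions. The libraries hold different cells, and since the states were set by 4 genes of the cell cycle, calls of such genes are a description.

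All 15 compared S phase genes were higher in cycling cells of the control library, where 11.6% of all genes were. Their median log2 ratio was 1.91, against 0.07 over all genes. Rrm2, the regulated subunit of ribonucleotide reductase, was 176 CPM in cycling and 14.1 CPM in non-cycling cells, a ratio of 12.4. Tk1, thymidine kinase, was 175 and 18.3 CPM, and the replication clamp Pcna was 214 and 90.0. All 16 compared G2 and M phase genes were higher, against the same 11.6% of all genes, with a median of 4.15. Ccnb1, cyclin B1, was 117 and 1.28 CPM, Ccna2, cyclin A2, 116 and 0.385, Cenpf, of the kinetochore, 114 and 0.256, and the mitotic kinase gene Aurkb 107 and 0.898. In the motolimod library these 4 were 130, 121, 130 and 98.2 CPM in cycling cells and 0, 1.19, 3.57 and 1.19 CPM in non-cycling cells.

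Other genes named for the highest ratios were Pclaf, a partner of the replication clamp, at 340 and 8.34 CPM, Cenpa, the centromeric histone, at 286 and 8.34, and Cdca8, which encodes borealin, at 138 and 3.21. Tpx2, a spindle assembly factor, was 163 and 5.90 CPM, Prc1, which bundles the midzone microtubules, 112 and 4.36, and Spc24, of the outer kinetochore, 110 and 3.98. The intermediate cells lay between the others. The S phase list summed to 970, 1633 and 2908 CPM and the G2 and M phase list to 711, 1052 and 4725 CPM in non-cycling, intermediate and cycling control cells.

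Of 3 compared keratins, 2 were lower in cycling cells and none higher, where 6.5% of all compared genes were lower and 11.6% higher. Krt19 was 161 CPM in cycling and 380 CPM in non-cycling control cells, a ratio of 0.424, and 0.415 in the motolimod library. Krt8 was 1086 and 1666 CPM, a ratio of 0.652, and 0.528 in the motolimod library, and Krt18 was 835 and 1007 CPM and not called. The cells were chosen on a minimum of keratin UMIs and non-cycling cells were shallower, so these levels are a description. Sox9, a transcription factor of progenitor cells, was 48.3 and 119 CPM, a ratio of 0.406, and 0.186 in the motolimod library. Rhox5 was 1050 and 998 CPM and did not reach 1.5-fold in either library.

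Glycolysis and hypoxia genes were lower in cycling cells for 6 of 20 compared genes and higher for none, where 6.5% of all compared genes were lower and 11.6% higher, with a median log2 ratio of -0.42. Ndrg1, a hypoxia-induced differentiation gene, was 93.7 and 235 CPM, and Bnip3, which drives removal of mitochondria, 176 and 385. Ero1l, an oxidase of protein folding, was 109 and 239 CPM, and Vegfa, the vascular growth factor, 91.3 and 169. The motolimod ratios of Ndrg1, Bnip3 and Ero1l were 0.405, 0.316 and 0.536, and that of Vegfa was 0.728 and not called. The core glycolytic genes Ldha and Gapdh were within 1.5-fold, at 2999 and 3316 CPM and 2415 and 2855 CPM.

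Secreted factors were lower for 9 of 15 and higher for 1, against the same 6.5% and 11.6% of all genes, with a median of -0.61. Ccl2 was 1783 and 2722 CPM, Ccl7, another monocyte chemokine, 29.1 and 88.0, and Cxcl2 401 and 724. Cxcl10 was the higher one, at 256 and 149 CPM in the control library, and its ratio was 3.52 in the motolimod library. Of 14 secreted factors compared in the motolimod library, Ccl2 and Ccl7 were lower and Cxcl10 higher, where 7.28% of all genes were lower and 16.1% higher. Of 4 compared p53 targets in the control library, 3 were lower and none higher, where 6.5% of all genes were lower and 11.6% higher. The 3 were Plk2 at 56.2 and 145 CPM, Btg2 at 116 and 215 and Cdkn1a, the inhibitor p21, at 183 and 286. Of the same 4, the motolimod library had 1 call, Plk2 with a ratio of 0.457, and Cdkn1a had 0.927.

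The genes with the lowest ratios in the control library also included Cebpd, a transcription factor of the acute phase, at 20.1 and 107 CPM, Vcam1, an adhesion receptor for leukocytes, at 28.8 and 87.6, Sat1, of polyamine breakdown, at 173 and 439, and Hcfc1r1 at 42.6 and 131. Vcam1, Sat1 and Hcfc1r1 had ratios of 0.363, 0.357 and 0.187 in the motolimod library. Cebpd had 0.662 there, at 10.2 and 15.5 CPM. Among chaperones, the mitochondrial pair Hspd1 and Hspe1 were higher in cycling cells, at 619 and 348 CPM and 594 and 388 CPM, and the small heat-shock genes Hspb1 and Cryab were lower, at 771 and 1495 CPM and 34.9 and 84.4 CPM. The ratio of Hspb1 was 0.516 in the control and 0.325 in the motolimod library, and that of Cryab was 0.414 and 0.891. MHC class I genes had 1 lower among 16, H2-T23 at 136 and 254 CPM, a share near the 6.5% of all genes, and a median of -0.21.

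**Figure D5:**
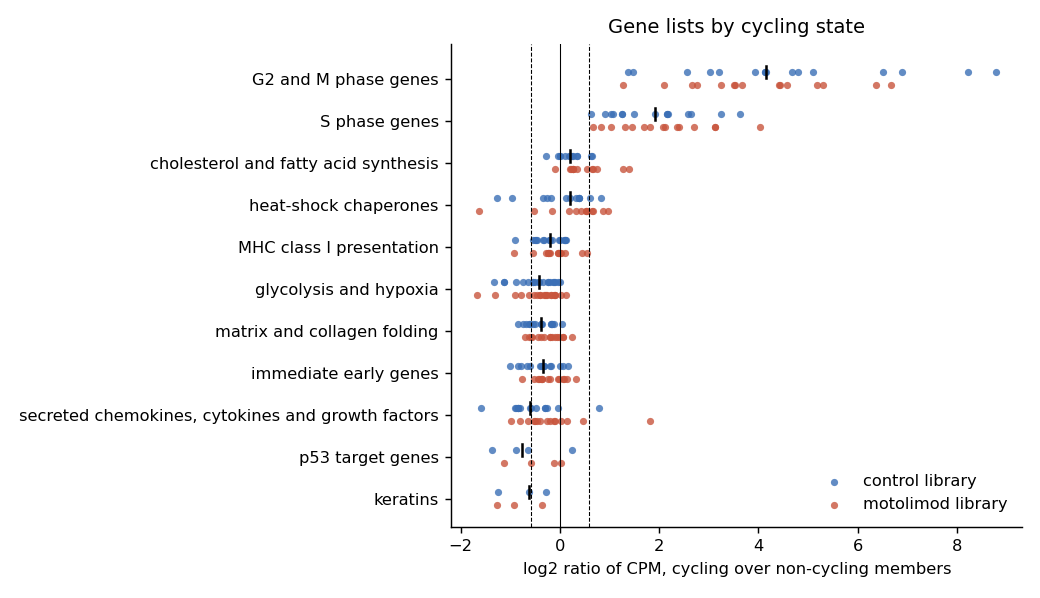
log2 ratio of CPM, cycling over non-cycling keratin-positive cells (x axis), for each gene of 11 lists (y axis) compared in the control library, with the control library in blue and the motolimod library in red. Black bars are the control medians (4.15 for G2 and M phase, 1.91 for S phase, -0.42 for glycolysis and hypoxia), dashed lines mark 1.5-fold, and genes with no UMI in a state of the motolimod library are not drawn in red.

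Non-cycling control cells also differed among themselves. Over 3664 genes with a mean of at least 0.1 UMI in the 226 cells thinned to 3000 UMIs, the median ratio of variance to mean was 1.05, close to that of counting alone. The ratio was highest for Gm42418, at 24.6, a locus that overlaps ribosomal RNA repeats. Mt1, a metal-binding protein, followed with 10.3, Ccl2 with 9.45, Cxcl2 with 7.88, the ferritin light chain gene Ftl1 with 7.87 and Cd74 with 7.40. Ccl2 was seen in 78.8% of the thinned cells and Cxcl2 in 38.1%, with up to 50 and 23 UMIs of 3000 in a cell. Isg15 had a ratio of 7.1 and Rsad2, an antiviral enzyme of the interferon response, 4.93, with Rsad2 in 5.31% of the cells and up to 8 UMIs. The immediate early gene Fos had 5.35, the growth and stress gene Ier3 4.89, Ccn1 4.88 and Nfkbia, the feedback inhibitor of NF-kB, 4.69. Across the 226 cells, which share 1 library and 1 depth, Ccl2 and Nfkbia had a Spearman rho of 0.63, Ier3 and Nfkbia of 0.45 and Ccl2 and Cxcl2 of 0.41. Cd74 was seen in 11.1% of these cells with up to 20 UMIs and belongs to the macrophage list.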

How the data were processed

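UMI counts per gene and barcode were deposited as 1 matrix of whole counts per library. Per the submitters' processing notes they were made with Cell Ranger 5.0.1 on build mm10, while the file headers name Cell Ranger 7.1.0. The 8099 and 10037 deposited barcodes were filtered in Python 3.11.15, which left 7484 and 9314. The members and the gene lists were chosen with earlier results of these data known. Counts were summed over cells and given as CPM, without a test, since there is 1 library per group. Intervals are exact (Poisson, Clopper-Pearson, conditional binomial; scipy 1.17.1). Genes with a mean of at least 50 CPM were compared. Of 32285 identifiers, 78 share a symbol and were left out of the lists (Aldoa and Ddit3 among them). Named genes were the 12 highest and 12 lowest ratios between libraries (seen in 10% of cells, no cell over 25% of the UMIs, above the other barcodes), 5 of each that were higher in other barcodes, 10 of each by cycling state, 20 markers and 15 variable genes, with up to 4 from each list. Macrophages were barcodes with at least 20 C1q UMIs, T cells with at least 2 of Cd3e and neutrophils with at least 2 of Csf3r and 10 of S100a8 and S100a9. All 3 sets had at most 1 UMI of Krt8 and Krt18, and the last 2 at most 5 of C1q. On simulated data, all 200 changed genes (50 per size: 2-fold and 3-fold, both directions) were recovered for both comparisons, with 0 calls among 2466 and 2467 unchanged genes. The simulated counts held counting error only and no variation between cells or libraries. They check the calculation and cannot show how many calls in the real data are false. Positions came from GENCODE vM21 and promoters from RefSeq. Alternatives covered filters, minima, scaling, thinning and cell subsets, and 3 of them (cells with 2 or more cycling UMIs, the cycling comparison in the motolimod library, shares outside the neutrophil set) were added after seeing the data. A few genes are not reported here.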

Additional observations from a re-analysis of the deposited data

How the results depend on the processing

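The ratio of the shares of keratin-positive cells (0.0786) lay between 0.0761 and 0.0849 for the other keratin minima, immune cuts, the Scrublet removal and the denominator without neutrophils, and rose to 0.113 with at least 1000 genes and 2000 UMIs and to 0.117 after thinning to 3000 UMIs. Between the libraries, higher and lower genes numbered 70 and 59 at a minimum of 20 CPM, 4 and 4 at 200 CPM, 2289 and 4324 with no minimum, 3 and 3 at 2-fold, 237 and 117 after thinning, 51 and 44 in non-cycling cells and 42 and 23 in the others, the last chosen after seeing the data. Fewer UMIs or fewer cells entered the thinned and split comparisons. The summed type I interferon ratio (0.631) was 0.708 after thinning, which is within 1.5-fold, and in the main setting it is within 2-fold. By cycling state the counts were 638 and 361 at 20 CPM and 65 and 49 at 200 CPM. Of the 34 genes named between libraries, 9 kept their call under all settings other than the 2-fold one. Isg15, Bst2, Clu, Gdf15 and Tnfsf9 lost it only after thinning, to 0.717, 0.747, 0.802, 0.693 and 0.696. Zbp1, Nppb, Polr2l and Dynlt1b also lost it only after thinning. Of the 20 named by cycling state, 19 kept it, Cryab losing it in the motolimod library. The cause was not tested. No paired analysis was possible because each group is 1 library. Leaving out a replicate was not possible for the same reason. The 70 motolimod cells limit every comparison between libraries.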
